A study of Mus musculus with 12 samples.

Results

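The fatty acid uptake and oxidation genes are 38 mouse genes chosen by name, from lipoprotein lipase at the capillary wall to the last thiolase of mitochondrial beta-oxidation. They were looked up by gene name among 18604 genes in the deposited tables, and all 38 were present in each of the 4 tables, which share 17354 genes. None was removed by the filter on low values. RNA-seq was performed on hearts of male C57Bl/6J mice aged 12 weeks, with 3 libraries in each of 4 groups. Mice of 2 groups ate a BCAA-free diet, from which the branched-chain amino acids (leucine, isoleucine and valine) were left out, and underwent either transverse aortic constriction (TAC) or sham surgery. Mice of the other 2 groups ate a BCAA-control diet that contained these amino acids, and likewise underwent TAC or sham surgery. TAC narrows the aorta and raises the pressure against which the left ventricle pumps. Diets began 4 days before surgery and were kept until the heart was taken 1 week after it. The labels give the tissue only as heart and do not say which chambers were taken, nor that the 3 libraries of a group came from different mice. The p-values therefore describe the spread among these libraries, which may be technical in part.

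The adult heart draws most of its energy from long-chain fatty acids. These are released from circulating triglycerides, cross the plasma membrane, are activated to acyl-CoA and enter mitochondria as acylcarnitines. Inside, repeated rounds of dehydrogenation, hydration, a second dehydrogenation and thiolysis shorten the chain and yield acetyl-CoA and reducing equivalents. Many genes of this route are known targets of the nuclear receptor PPARA, a fatty acid sensor, and of its coactivator PPARGC1A, and lower expression of the route is a known feature of hypertrophied hearts.

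Promoter sequences of some genes of the route are shown as a description, and no link between them and the changes below was tested. They are given as in RefSeq for GRCm38.p6 from 250 bases before to 50 bases after a gene's start, read along the gene's own strand. Hadha and Hadhb, which encode both subunits of the mitochondrial trifunctional protein, lie head to head on chromosome 5, with Hadha on the minus strand at 30118304 to 30155162 and Hadhb on the plus strand at 30155248 to 30184593. Only 85 bases lie between the ends of the genes as annotated by GENCODE, shown in capitals in the RefSeq window at chr5:30155003-30155302 on the plus strand.
Hadhb: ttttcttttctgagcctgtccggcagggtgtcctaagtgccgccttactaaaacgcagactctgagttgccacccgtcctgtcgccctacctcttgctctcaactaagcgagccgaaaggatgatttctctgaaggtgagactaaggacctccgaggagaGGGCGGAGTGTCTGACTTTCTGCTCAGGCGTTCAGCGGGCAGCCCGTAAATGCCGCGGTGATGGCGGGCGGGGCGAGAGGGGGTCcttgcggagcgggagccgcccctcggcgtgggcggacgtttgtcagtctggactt
The window is printed because, by the GENCODE ends, it also holds the first bases of Hadha on the other strand. The levels of both genes are set side by side below. By RefSeq the start of Hadha lies outside the printed window, although its own window, chr5:30154931-30155230 on the minus strand, overlaps it. The hexamer AGGTCA, the half-site that PPAR, RXR and ERR nuclear receptors are known to bind, was searched on both strands of each window. It was present in 16.3% of all 32851 promoter windows of the table and in at least 1 window of 7 genes among the 32 with a window, namely Acadm, Acadvl, Cd36, Cpt1a, Echs1, Plin5 and Ucp3. The windows of 3 of these genes that passed the test between diets in TAC hearts are shown, with the hexamer or its reverse complement TGACCT in capitals. The window of Acadm is chr3:153944594-153944893 on the minus strand, that of Acadvl is chr11:70015379-70015678 on the minus strand and that of Cd36 is chr5:17835847-17836146 on the minus strand.
Acadm: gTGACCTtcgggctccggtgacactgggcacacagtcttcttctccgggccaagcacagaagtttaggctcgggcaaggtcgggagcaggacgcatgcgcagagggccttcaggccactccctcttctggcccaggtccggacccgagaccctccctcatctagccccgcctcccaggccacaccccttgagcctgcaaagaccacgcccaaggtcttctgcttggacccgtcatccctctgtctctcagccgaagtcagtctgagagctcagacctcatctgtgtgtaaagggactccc
Acadvl: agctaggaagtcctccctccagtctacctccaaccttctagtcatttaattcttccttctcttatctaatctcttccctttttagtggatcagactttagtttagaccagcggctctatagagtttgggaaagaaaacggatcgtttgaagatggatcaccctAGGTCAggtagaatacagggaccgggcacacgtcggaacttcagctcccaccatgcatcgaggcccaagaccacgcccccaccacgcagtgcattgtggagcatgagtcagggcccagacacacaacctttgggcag
Cd36: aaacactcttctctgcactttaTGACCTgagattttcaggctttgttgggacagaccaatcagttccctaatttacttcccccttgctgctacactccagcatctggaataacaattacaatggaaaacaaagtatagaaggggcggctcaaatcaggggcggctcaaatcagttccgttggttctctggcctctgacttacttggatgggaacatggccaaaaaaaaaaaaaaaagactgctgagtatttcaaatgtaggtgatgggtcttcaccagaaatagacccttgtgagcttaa
Ucp3, which passed in no comparison by limma without cardiomyocyte scaling, held the hexamer 2 times. The first bases were at -149 and -44 from its start, in the window chr7:100472741-100473040 on the plus strand.
Ucp3: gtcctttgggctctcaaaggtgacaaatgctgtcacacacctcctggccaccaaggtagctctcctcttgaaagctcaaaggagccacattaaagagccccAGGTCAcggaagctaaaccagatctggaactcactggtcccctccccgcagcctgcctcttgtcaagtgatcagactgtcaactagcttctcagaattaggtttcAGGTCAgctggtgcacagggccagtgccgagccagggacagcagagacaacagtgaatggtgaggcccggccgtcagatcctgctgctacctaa
A fuller PPAR element (DR1), searched as AGGNCA repeated in the same direction with 1 base between, matched 0.381% of all windows and none of the 32 genes. The ERR element searched as TNAAGGTCA, which contains the hexamer, matched 1.28% of all windows and none of the 32 genes. A match of letters is a description of the window and says nothing of binding.

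Libraries held between 74206246 and 110452636 reads assigned to genes. The summed level of 9 cardiomyocyte genes (Tnnt2, Tnni3, Tnnc1, Actn2, Mybpc3, Myl2, Myl3, Ttn and Ldb3) was between 3912180 and 4272890 normalized reads in BCAA-free TAC, 3396850 and 3671060 in BCAA-free sham, 2740350 and 3427130 in control diet TAC, and 3080080 and 3445110 in control diet sham hearts, so genes that define heart muscle were abundant in every library. The skeletal muscle genes Myh1, Myh2, Myh4 and Myf6 are not analysed here. The sum of 5 fibroblast genes ran from 83336 to 108234 in control diet TAC hearts and from 46197 to 58714 over the other 3 groups. That of 5 macrophage genes ran from 12459 to 14623 in control diet TAC hearts and from 6064 to 9661 over the other 3 groups. The share of reads from mitochondrial genes was 17.9% to 19.9% in control diet TAC hearts and 21.8% to 27.1% elsewhere. In bulk tissue, fewer cells of a type and less RNA per cell cannot be told apart. Replicate 3 of control diet TAC stood apart from the other control diet TAC libraries: among them it had the lowest fibroblast sum (83336) and the highest cardiomyocyte sum (3427130), and it held the highest level of its group for 31 of the 38 genes. Counts, and the single changes that leaving it out carried past the threshold, are given with and without it. It was singled out in part by its levels of these same genes. Fits without it therefore describe how results depend on 1 library and are no separate evidence. Leaving out any other 1 library lowered the genes called with TAC on the control diet from 10 to between 3 and 5. Between diets in TAC hearts the genes called went from 16 to between 3 and 8. These counts include 1 gene called lower without control diet TAC replicate 1, and 1 without BCAA-free TAC replicate 1. Calls over all genes fell as well in those fits.

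Hearts under pressure load on the control diet held most fatty acid uptake and oxidation genes at lower levels than control diet sham hearts, also when libraries were scaled to the cardiomyocyte sum (35 of 38 genes below 0, against 37 otherwise). Set against the mean of control diet sham hearts, the median difference over the 38 genes was -0.02, 0.11 and 0.05 on the log2 scale in BCAA-free TAC libraries 1, 2 and 3, and 0.14, 0.14 and 0.08 in BCAA-free sham libraries. It was -0.50, -0.49 and -0.17 in the control diet TAC libraries. The number of genes below the control diet sham mean was 22, 11 and 11 of 38 in BCAA-free TAC libraries, 6, 4 and 7 in BCAA-free sham libraries, and 37, 36 and 28 in control diet TAC libraries. The 38 genes together took 2.92% to 3.12% of the reads of nuclear genes in BCAA-free TAC hearts, 3.21% to 3.35% in BCAA-free sham hearts, 2.34% to 2.68% in control diet TAC hearts and 2.86% to 3.12% in control diet sham hearts.

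**Figure D1:**
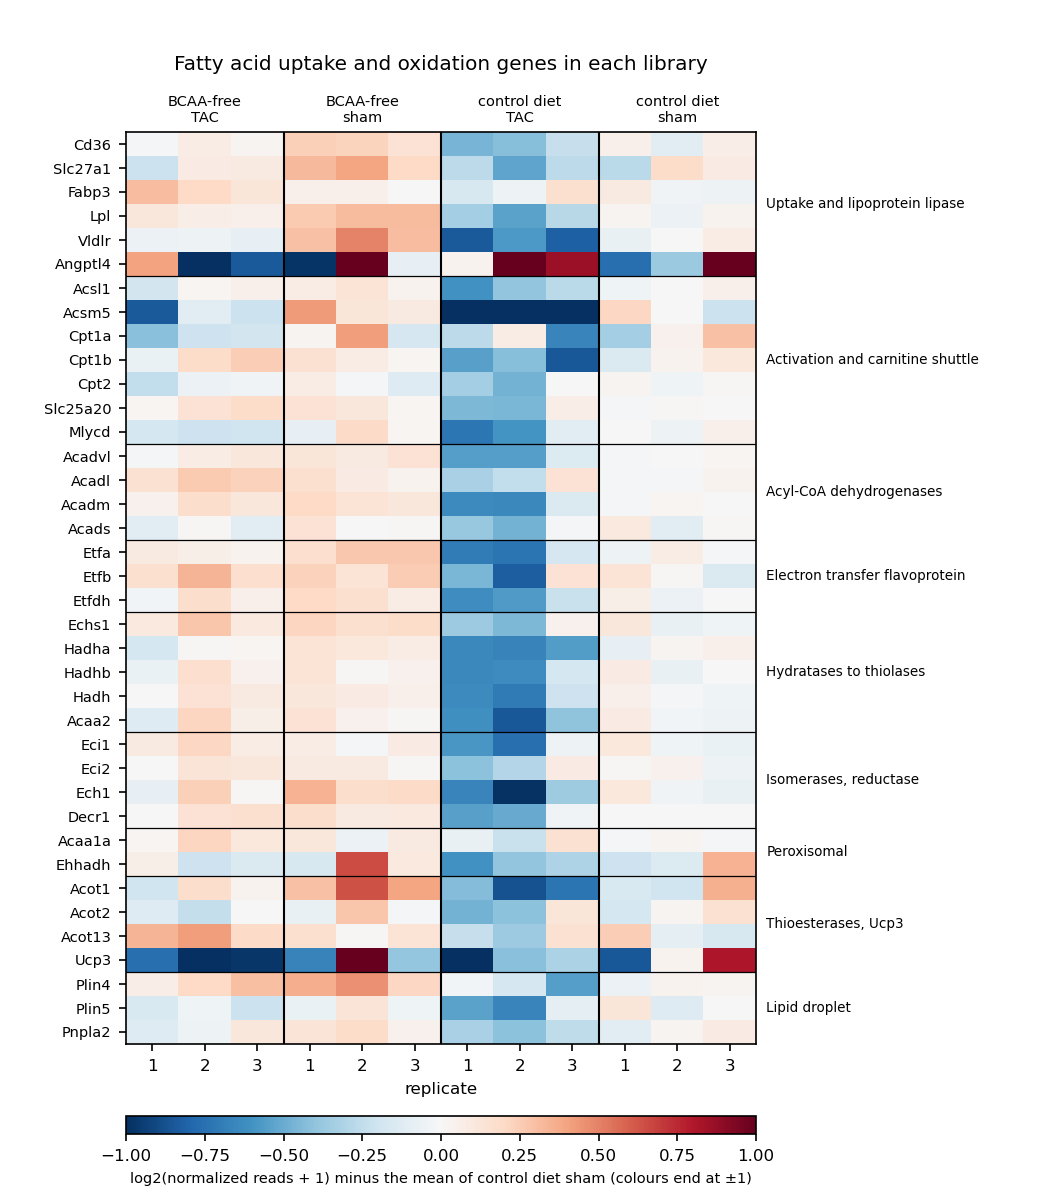
Each row is 1 gene and each column 1 library, in the order BCAA-free TAC, BCAA-free sham, control diet TAC and control diet sham, with replicates 1 to 3; colour is log2(normalized reads + 1) minus the gene's mean in control diet sham hearts, and ends at -1 and 1. Most genes are blue in control diet TAC libraries 1 and 2, where the median difference is -0.50 and -0.49, and paler in library 3, where it is -0.17; this plot uses size factors over all genes and no scaling to cardiomyocyte genes, under which the median between diets in TAC hearts was -0.03.

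Levels of different genes were compared per kilobase of exon, as normalized reads averaged over the 4 group means. Fabp3, the abundant fatty acid-binding protein of heart muscle, was the highest at 310510 reads per kilobase, followed by Acadl at 46684, Lpl at 43478, Acaa2 at 41487 and Cd36 at 39858. The lowest were Acsm5 at 111, Angptl4 at 147, Acot1 at 319, Ehhadh at 396 and Cpt1a at 581 reads per kilobase, so the span between the ends was 2806-fold. Cpt1b, the muscle form of carnitine palmitoyltransferase 1, stood at 3053 reads per kilobase, above the 581 of the liver form Cpt1a. Within groups, the pooled SD of log2 levels had a median of 0.15 over the 38 genes, and it was above 0.3 for 3 of them, Angptl4 (0.996), Ucp3 (0.676) and Acsm5 (0.345).

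Uptake genes were described first. Vldlr encodes a receptor that binds triglyceride-rich lipoproteins, and lies on chromosome 19 at 27216484 to 27254231 on the plus strand. Vldlr had 30659, 30968 and 30307 normalized reads in BCAA-free TAC hearts, against 39297, 45193 and 39558 in BCAA-free sham hearts. Vldlr stood at 17841, 21456 and 18137 in control diet TAC hearts, against 30486, 32016 and 33624 in control diet sham hearts. TAC and sham libraries did not overlap on either diet, nor did the diets overlap within either surgery. The log2 change (± SE, limma) with TAC was -0.43 ± 0.06, adjusted p = 0.00166 on the BCAA-free diet, and -0.76 ± 0.11, adjusted p = 0.00345 on the control diet. Vldlr rose on the BCAA-free diet, by 0.69 ± 0.11, adjusted p = 0.00291 in TAC hearts and by 0.36 ± 0.07, adjusted p = 0.0234 in sham hearts. It was the only one of the 38 genes to pass in all 4 pairs of groups. Lpl encodes lipoprotein lipase, which frees fatty acids from circulating triglycerides. Lpl had 486150, 470178 and 466589 normalized reads in BCAA-free TAC hearts, against 539200, 559854 and 559832 in BCAA-free sham hearts. Lpl stood at 354618, 309557 and 370944 in control diet TAC hearts, against 458397, 431759 and 459664 in control diet sham hearts. The groups of Lpl did not overlap in any of the 4 pairs either. Lpl fell with TAC on the BCAA-free diet (-0.23 ± 0.05, adjusted p = 0.0239), whereas on the control diet the larger change of -0.40 ± 0.13 had adjusted p = 0.0709, and without replicate 3 of control diet TAC it was -0.46, adjusted p = 0.00904. Between diets it rose both in TAC hearts (0.47 ± 0.13, adjusted p = 0.0325) and in sham hearts (0.30 ± 0.06, adjusted p = 0.0257).

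Cd36 encodes the membrane glycoprotein that takes up long-chain fatty acids into heart muscle. Cd36 had 143628, 152842 and 147719 normalized reads in BCAA-free TAC hearts, against 171410, 168746 and 160324 in BCAA-free sham hearts. Cd36 stood at 104797, 108211 and 123788 in control diet TAC hearts, against 149902, 134144 and 151556 in control diet sham hearts. Every control diet TAC library was below every library of the other groups, and BCAA-free sham libraries were the highest. With all libraries Cd36 passed only between diets in TAC hearts, at 0.41 ± 0.12, adjusted p = 0.0428; its change with TAC was -0.18 ± 0.05, adjusted p = 0.0696 on the BCAA-free diet and -0.38 ± 0.12, adjusted p = 0.0727 on the control diet, the last being -0.46, adjusted p = 0.0062 without replicate 3 of control diet TAC. Slc27a1 encodes the transport protein FATP1, which couples uptake to activation. Slc27a1 had 10463, 12821 and 12930.4 normalized reads in BCAA-free TAC hearts, against 15179, 15977 and 13949 in BCAA-free sham hearts. Slc27a1 stood at 10116, 8406 and 10111 in control diet TAC hearts, against 10077, 13811 and 12862 in control diet sham hearts. It fell with TAC on the BCAA-free diet (-0.33 ± 0.09, adjusted p = 0.0432), while on the control diet 1 sham library lay among the TAC libraries and the change was -0.36 ± 0.14, adjusted p = 0.119. Between diets in TAC hearts Slc27a1 had 0.34 ± 0.12, adjusted p = 0.0883, and 0.39, adjusted p = 0.02 without replicate 3 of control diet TAC. Fabp3 carries fatty acids through the cytosol. Fabp3 had 303050, 281271 and 266309 normalized reads in BCAA-free TAC hearts, against 253316, 253681 and 243840 in BCAA-free sham hearts. Fabp3 stood at 219081, 236421 and 273478 in control diet TAC hearts, against 260398, 239566 and 236167 in control diet sham hearts. Its BCAA-free TAC libraries were all above the BCAA-free sham libraries, and the control diet groups overlapped. With all libraries no change of Fabp3 passed: it was 0.17 ± 0.06, adjusted p = 0.0972 with TAC on the BCAA-free diet and -0.03 ± 0.13, adjusted p = 0.911 on the control diet; between diets in TAC hearts it was 0.23 ± 0.13, adjusted p = 0.264, and 0.33, adjusted p = 0.0155 without replicate 3 of control diet TAC. White adipocytes also express Lpl, Cd36, Pnpla2 and Plin4, and the summed level of 6 white adipocyte markers was 899.5 to 2438 normalized reads in BCAA-free TAC, 493 to 681 in BCAA-free sham, 551 to 2019 in control diet TAC and 365 to 566 in control diet sham hearts, with Lep at 0 in at least 1 library. Its part in these values was not tested.

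Activation and the carnitine shuttle came next. Acsm5 encodes a medium-chain acyl-CoA synthetase and had the largest called change of the 38 genes, from low levels. It lies on chromosome 7 at 119519463 to 119545551 on the plus strand. Acsm5 had 289.7, 484 and 448 normalized reads in BCAA-free TAC hearts, against 698, 565 and 555 in BCAA-free sham hearts. Acsm5 stood at 133, 101 and 199.7 in control diet TAC hearts, against 602, 521 and 448 in control diet sham hearts. The control diet TAC libraries were below all others without overlap, and BCAA-free TAC libraries were below BCAA-free sham libraries. Acsm5 fell with TAC on the control diet by 1.90 ± 0.25, adjusted p = 0.00201, while the change on the BCAA-free diet was -0.60 ± 0.19, adjusted p = 0.0831. Between diets it rose in TAC hearts (1.51 ± 0.28, adjusted p = 0.00626), and in sham hearts the difference was 0.21 ± 0.13, adjusted p = 0.419. Acsl1 encodes the main long-chain acyl-CoA synthetase of the heart. Acsl1 had 69697, 80439 and 82069 normalized reads in BCAA-free TAC hearts, against 83440.5, 87177 and 81037 in BCAA-free sham hearts. Acsl1 stood at 52065, 60293 and 65598 in control diet TAC hearts, against 76718, 78852 and 81951 in control diet sham hearts. It fell with TAC on the control diet (-0.43 ± 0.12, adjusted p = 0.0456), and the change on the BCAA-free diet was -0.12 ± 0.07, adjusted p = 0.302. Between diets in TAC hearts it had 0.39 ± 0.13, adjusted p = 0.0663, and 0.47, adjusted p = 0.00256 without replicate 3 of control diet TAC.

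Cpt1b encodes the outer-membrane enzyme that forms acylcarnitines in muscle. Cpt1b had 10320.3, 12245 and 12806 normalized reads in BCAA-free TAC hearts, against 11964, 11339 and 10954 in BCAA-free sham hearts. Cpt1b stood at 7422, 8036 and 5988 in control diet TAC hearts, against 9762, 11081 and 11614 in control diet sham hearts. Control diet TAC libraries lay below every other library. Cpt1b fell with TAC on the control diet (-0.61 ± 0.13, adjusted p = 0.0137), and on the BCAA-free diet the change was 0.04 ± 0.08, adjusted p = 0.836. It was higher on the BCAA-free diet in TAC hearts (0.73 ± 0.13, adjusted p = 0.00582), and the difference in sham hearts was 0.08 ± 0.07, adjusted p = 0.599. In Cpt1b, replicate 3 of control diet TAC was the lowest of its group, unlike most of the route. Of its 50-base stretches, 93.0% are also in the annotated gene Gm44502 on the same strand, so its count may hold or lack shared reads. Cpt1a encodes the liver form of the enzyme. Cpt1a had 3532, 4086 and 4139.5 normalized reads in BCAA-free TAC hearts, against 4796, 6313 and 4195 in BCAA-free sham hearts. Cpt1a stood at 3934, 4958 and 2976 in control diet TAC hearts, against 3733, 4844 and 5788 in control diet sham hearts. The control diet groups overlapped, and BCAA-free TAC libraries were below BCAA-free sham libraries. None of its changes passed by limma without cardiomyocyte scaling. With TAC they were -0.37 ± 0.15, adjusted p = 0.221 on the BCAA-free diet and -0.29 ± 0.20, adjusted p = 0.375 on the control diet. Between diets in TAC hearts Cpt1a had 0.02 ± 0.16, adjusted p = 0.951. Scaled to the cardiomyocyte sum, its change with TAC on the BCAA-free diet was -0.59, adjusted p = 0.0484. Mlycd encodes malonyl-CoA decarboxylase, which removes the inhibitor of carnitine palmitoyltransferase 1. Mlycd had 6863, 6725 and 6774 normalized reads in BCAA-free TAC hearts, against 7339.9, 8854 and 7875 in BCAA-free sham hearts. Mlycd stood at 4712, 5144 and 7187 in control diet TAC hearts, against 7758, 7513 and 8039.6 in control diet sham hearts. TAC libraries were below sham libraries on both diets. Mlycd fell on the BCAA-free diet (-0.24 ± 0.07, adjusted p = 0.0459), and the change on the control diet was -0.48 ± 0.15, adjusted p = 0.0672, and -0.67, adjusted p = 0.000461 without replicate 3 of control diet TAC. Between diets in TAC hearts Mlycd had 0.29 ± 0.15, adjusted p = 0.223, and 0.47, adjusted p = 0.000429 without that library. Slc25a20, the carnitine-acylcarnitine carrier of the inner membrane, and Cpt2, which reforms acyl-CoA, passed in no comparison of all libraries, and both passed with TAC on the control diet and between diets in TAC hearts when that library was left out. With TAC on the control diet Slc25a20 had -0.29 ± 0.15, adjusted p = 0.235 with all libraries, and -0.47, adjusted p = 0.00192 without it. Cpt2 had -0.28 ± 0.13, adjusted p = 0.193 with all libraries, and -0.42, adjusted p = 0.00459 without it.

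**Figure D2:**
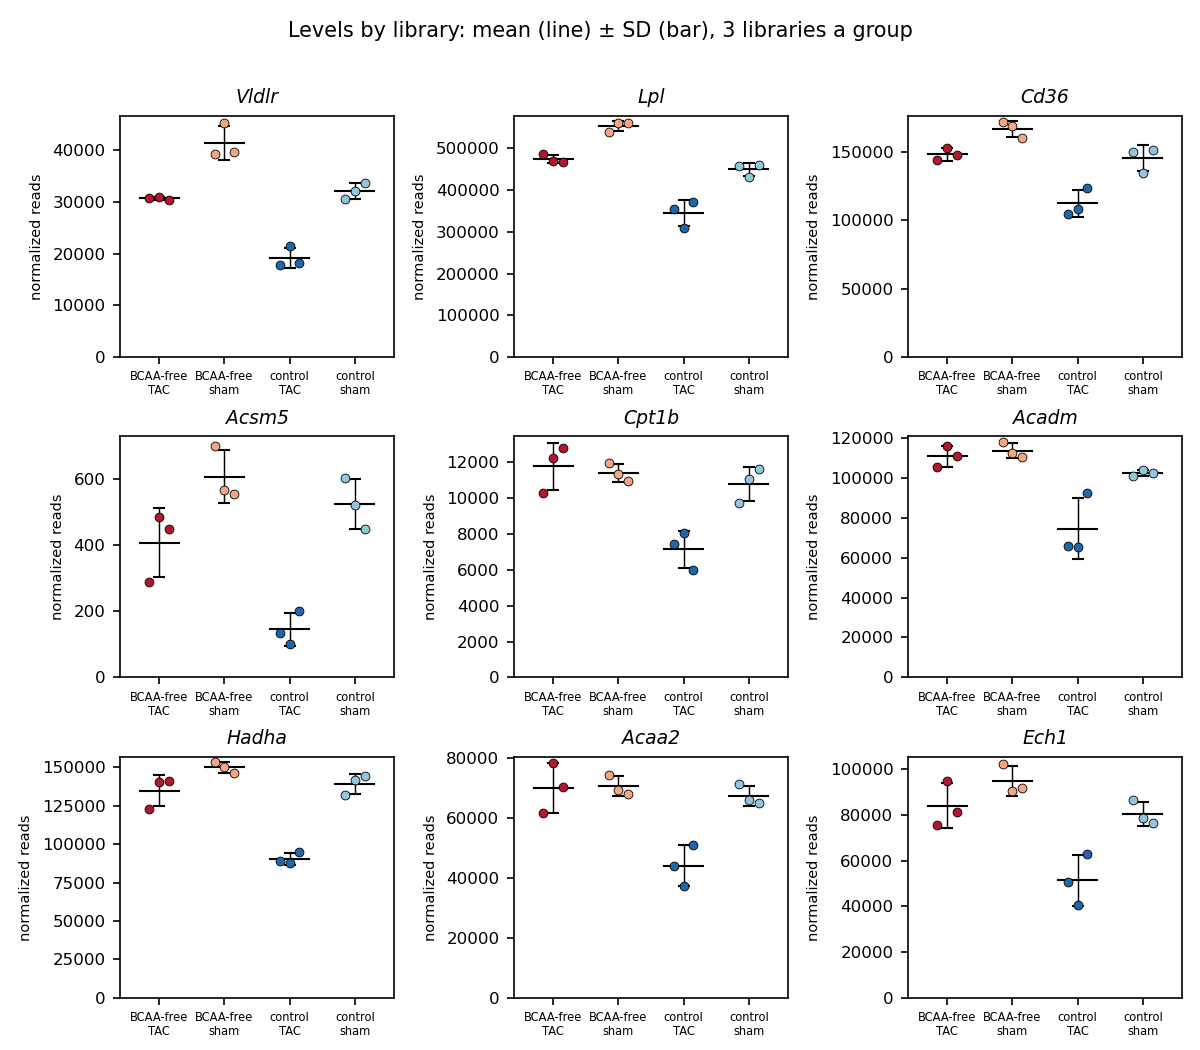
Normalized reads of 9 genes in each library, with points for libraries, a line for the group mean and a bar for the SD (n = 3 a group), in the order BCAA-free TAC, BCAA-free sham, control diet TAC and control diet sham. Control diet TAC points lie below those of the other 3 groups in each panel, as in Acsm5 with 133, 101 and 199.7 normalized reads; values are scaled by size factors over all genes, not by cardiomyocyte genes.

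The acyl-CoA dehydrogenases carry out the first oxidation, each on its own chain lengths. Acadm, the medium-chain enzyme, passed between diets in TAC hearts. Acadm had 105434, 115867 and 110710 normalized reads in BCAA-free TAC hearts, against 117737, 112381 and 110585 in BCAA-free sham hearts. Acadm stood at 65714, 65559 and 92457 in control diet TAC hearts, against 100946, 103836 and 102466 in control diet sham hearts. Its control diet TAC libraries 1 and 2 were far below all others, and library 3 was nearer to the shams. Acadm rose on the BCAA-free diet in TAC hearts (0.59 ± 0.15, adjusted p = 0.0272), and its change with TAC was -0.04 ± 0.06, adjusted p = 0.713 on that diet and -0.49 ± 0.15, adjusted p = 0.0651 on the control diet (-0.66, adjusted p = 0.000526 without replicate 3 of control diet TAC). Acadvl, the very long-chain enzyme of the inner membrane, passed there too. Acadvl had 73917, 78957 and 81369 normalized reads in BCAA-free TAC hearts, against 81611, 79879 and 82850.4 in BCAA-free sham hearts. Acadvl stood at 51206, 51359.8 and 68161 in control diet TAC hearts, against 74428, 74798 and 76143 in control diet sham hearts. Control diet TAC libraries were the lowest without overlap. Acadvl rose between diets in TAC hearts (0.47 ± 0.14, adjusted p = 0.0443); the change with TAC on the control diet was -0.42 ± 0.14, adjusted p = 0.0736, and -0.57, adjusted p = 0.000997 without replicate 3 of control diet TAC. On the opposite strand, Dvl2 overlaps 42.9% of the exons of Acadvl, and the strand setting of the counting is not given. Acadl, the long-chain enzyme, and Acads, the short-chain enzyme, did not pass with all libraries, with 0.36 ± 0.14, adjusted p = 0.114 and 0.23 ± 0.13, adjusted p = 0.271 between diets in TAC hearts. Without replicate 3 of control diet TAC both passed there, Acadl at 0.51, adjusted p = 0.000486 and Acads at 0.37, adjusted p = 0.00327, and with TAC on the control diet, at -0.30, adjusted p = 0.0227 and -0.44, adjusted p = 0.00648.

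Electrons from these dehydrogenases pass to the electron transfer flavoprotein, made of the Etfa and Etfb products, and then to its ubiquinone oxidoreductase, the Etfdh product. Etfdh had 57785, 66369.9 and 60895 normalized reads in BCAA-free TAC hearts, against 67593, 65666 and 62054 in BCAA-free sham hearts. Etfdh stood at 38255, 39799.5 and 50433 in control diet TAC hearts, against 61204, 56318 and 58994 in control diet sham hearts. Control diet TAC libraries of Etfdh were below all others. Etfdh fell with TAC on the control diet (-0.48 ± 0.13, adjusted p = 0.0429) and rose between diets in TAC hearts (0.54 ± 0.13, adjusted p = 0.0242), while its change with TAC on the BCAA-free diet was -0.08 ± 0.06, adjusted p = 0.469. Etfa had 70049, 68619 and 67419.5 normalized reads in BCAA-free TAC hearts, against 73901, 79515 and 79492 in BCAA-free sham hearts. Etfa stood at 40579, 39707 and 58573 in control diet TAC hearts, against 63672, 69178 and 64782 in control diet sham hearts. Etfa libraries did not overlap between TAC and sham on either diet. Etfa passed between diets in TAC hearts (0.60 ± 0.16, adjusted p = 0.0292), and with TAC on the control diet its change was -0.54 ± 0.16, adjusted p = 0.0533, and -0.73, adjusted p = 0.000353 without replicate 3 of control diet TAC. Etfb had a change of 0.61 ± 0.21, adjusted p = 0.0766 between diets in TAC hearts, and 0.87, adjusted p = 0.000136 without that library. Its control diet TAC libraries spread from 9068 to 17722, with replicate 3 the highest, and 67.3% of its 50-base stretches are shared with the gene Gm45233.

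Hydration, the second dehydrogenation and thiolysis of long chains are carried out by the trifunctional protein, whose alpha subunit Hadha was among the steadiest genes within groups. Hadha had 123110, 140030 and 141261 normalized reads in BCAA-free TAC hearts, against 153185, 149942 and 146300 in BCAA-free sham hearts. Hadha stood at 88996, 87559 and 94616 in control diet TAC hearts, against 131575, 141813 and 144068 in control diet sham hearts. Replicate 3 of control diet TAC was close to the other replicates in this gene, and all 3 were far below the shams. Hadha fell with TAC on the control diet (-0.63 ± 0.11, adjusted p = 0.00689), with a change of -0.16 ± 0.06, adjusted p = 0.149 on the BCAA-free diet. Hadha rose between diets in TAC hearts (0.58 ± 0.12, adjusted p = 0.00907). Hadhb encodes the beta subunit from the head-to-head promoter window shown above. Hadhb had 129733, 152015 and 139894 normalized reads in BCAA-free TAC hearts, against 149274, 137123 and 140125 in BCAA-free sham hearts. Hadhb stood at 86813, 87652 and 120168 in control diet TAC hearts, against 143661, 128765 and 134996 in control diet sham hearts. Replicate 3 of control diet TAC was higher than replicates 1 and 2 in Hadhb and not in Hadha to the same extent. Hadhb rose between diets in TAC hearts (0.54 ± 0.15, adjusted p = 0.0399), and its change with TAC on the control diet was -0.49 ± 0.15, adjusted p = 0.0618, and -0.65, adjusted p = 0.000917 without that replicate. Of the 50-base stretches of Hadhb, 62.4% occur in other genes, mainly Gm13910, and none of those of Hadha do.

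Hadh encodes the dehydrogenase for shorter 3-hydroxyacyl-CoA. Hadh had 49040, 54484 and 52432 normalized reads in BCAA-free TAC hearts, against 53311, 52029 and 50934 in BCAA-free sham hearts. Hadh stood at 31660, 30113 and 42616 in control diet TAC hearts, against 51144, 48882 and 47777 in control diet sham hearts. It fell with TAC on the control diet (-0.53 ± 0.15, adjusted p = 0.0418) and rose between diets in TAC hearts (0.60 ± 0.15, adjusted p = 0.0215), with a change of -0.01 ± 0.06, adjusted p = 0.949 with TAC on the BCAA-free diet. Acaa2 encodes the mitochondrial thiolase of the last step. Acaa2 had 61443, 78035 and 70079 normalized reads in BCAA-free TAC hearts, against 74121, 69322 and 67775 in BCAA-free sham hearts. Acaa2 stood at 43897, 37281 and 50913 in control diet TAC hearts, against 71199, 65809 and 64858 in control diet sham hearts. Control diet TAC libraries were below every other library in both genes. Acaa2 fell with TAC on the control diet (-0.63 ± 0.14, adjusted p = 0.0163) and rose between diets in TAC hearts (0.68 ± 0.15, adjusted p = 0.0136). Echs1, the short-chain hydratase, had a change of 0.42 ± 0.14, adjusted p = 0.0739 between diets in TAC hearts with all libraries, and 0.57, adjusted p = 0.000275 without replicate 3 of control diet TAC.

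Auxiliary enzymes handle the double bonds of unsaturated fatty acids. Ech1 encodes a dienoyl-CoA isomerase. Ech1 had 75731, 94758 and 80978 normalized reads in BCAA-free TAC hearts, against 102113, 90545 and 91621 in BCAA-free sham hearts. Ech1 stood at 50753, 40469 and 62670.5 in control diet TAC hearts, against 86449, 78479 and 76408 in control diet sham hearts. Its control diet TAC libraries were below all others, and replicate 2 was the lowest. Ech1 fell with TAC on the control diet (-0.68 ± 0.16, adjusted p = 0.0247) and rose between diets in TAC hearts (0.73 ± 0.17, adjusted p = 0.0175), while its change with TAC on the BCAA-free diet was -0.19 ± 0.08, adjusted p = 0.199. Eci1 encodes an enoyl-CoA isomerase. Eci1 had 25117, 27291 and 24848 normalized reads in BCAA-free TAC hearts, against 24791, 23406 and 24948 in BCAA-free sham hearts. Eci1 stood at 15721, 13989.8 and 22733 in control diet TAC hearts, against 25423, 22915 and 22542 in control diet sham hearts. The control diet groups of Eci1 overlapped through TAC replicate 3, and it passed between diets in TAC hearts (0.59 ± 0.17, adjusted p = 0.0399) but not with TAC on the control diet (-0.47 ± 0.17, adjusted p = 0.105; -0.68, adjusted p = 0.000916 without that replicate). Eci2, a second isomerase, and Decr1, the dienoyl-CoA reductase, did not pass with all libraries, with 0.29 ± 0.13, adjusted p = 0.169 and 0.47 ± 0.15, adjusted p = 0.0566 between diets in TAC hearts. Both passed there without control diet TAC replicate 3, Eci2 at 0.44, adjusted p = 0.00101 and Decr1 at 0.64, adjusted p = 0.000101.

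Among thioesterases, which release free fatty acids from acyl-CoA, Acot1 passed in 3 of the 4 pairs of groups. Acot1 had 1081, 1406 and 1275 normalized reads in BCAA-free TAC hearts, against 1524, 1940.5 and 1639 in BCAA-free sham hearts. Acot1 stood at 920.3, 681 and 750.2 in control diet TAC hearts, against 1117, 1082 and 1596 in control diet sham hearts. TAC libraries were below sham libraries on both diets. Acot1 fell with TAC on the BCAA-free diet (-0.45 ± 0.11, adjusted p = 0.0364) and on the control diet (-0.69 ± 0.18, adjusted p = 0.0307; -0.67, adjusted p = 0.0525 without replicate 3 of control diet TAC), and it rose between diets in TAC hearts (0.69 ± 0.14, adjusted p = 0.0119). Acot2 lies 15616 bases before Acot1 on chromosome 12, and 33.2% of the 50-base stretches of Acot1 are shared with other genes, mainly Acot2. Acot2 did not pass with all libraries, with -0.26 ± 0.17, adjusted p = 0.335 for TAC on the control diet, nor did Acot13, with 0.47 ± 0.14, adjusted p = 0.0525 between diets in TAC hearts. Without control diet TAC replicate 3 these were -0.46, adjusted p = 0.009 and 0.62, adjusted p = 0.000197. Of the peroxisomal members, the thiolase Acaa1a had a change of -0.06 ± 0.11, adjusted p = 0.787 and the bifunctional enzyme Ehhadh one of -0.45 ± 0.16, adjusted p = 0.0992 with TAC on the control diet, and neither passed in any comparison of all libraries. Between diets in TAC hearts both passed without control diet TAC replicate 3, Acaa1a at 0.27, adjusted p = 0.0259 and Ehhadh at 0.41, adjusted p = 0.0133. Acaa1a shares 34.0% of its 50-base stretches with Acaa1b.

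Lipid droplet proteins hold and release stored triglycerides. Plin4 encodes a coat protein of the droplet. Plin4 had 16186, 17690.2 and 19038 normalized reads in BCAA-free TAC hearts, against 19826, 21224 and 17823 in BCAA-free sham hearts. Plin4 stood at 15191, 13756 and 10529 in control diet TAC hearts, against 14789.8, 15835 and 15727 in control diet sham hearts. BCAA-free sham libraries were above all control diet sham libraries. Plin4 rose with the BCAA-free diet in sham hearts (0.34 ± 0.07, adjusted p = 0.0301), and the difference in TAC hearts was 0.44 ± 0.14, adjusted p = 0.0591, and 0.29, adjusted p = 0.0219 without replicate 3 of control diet TAC. Plin5, which ties droplets to mitochondria and lies 1797 bases from Plin4 on chromosome 17, did not pass with all libraries, and its change with TAC on the control diet was -0.44 ± 0.16, adjusted p = 0.0948, and -0.61, adjusted p = 0.00186 without that replicate. Pnpla2 encodes the triglyceride lipase of the droplet; its TAC libraries on the control diet were below every sham library, with a change of -0.34 ± 0.10, adjusted p = 0.0585, and -0.38, adjusted p = 0.00989 without that replicate.

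Angptl4, Ucp3, Cpt1a and Ehhadh varied widely between libraries of 1 group. Angptl4 encodes a secreted inhibitor of lipoprotein lipase. Angptl4 had 536, 127 and 226 normalized reads in BCAA-free TAC hearts, against 205, 1013 and 383 in BCAA-free sham hearts. Angptl4 stood at 415, 1169 and 734 in control diet TAC hearts, against 239.8, 313 and 886 in control diet sham hearts. Within each group the highest library exceeded the lowest by 2.81-fold to 4.94-fold. No change of Angptl4 passed by limma with all libraries and without cardiomyocyte scaling. Its difference between diets in TAC hearts was -1.50 ± 0.51, adjusted p = 0.0795. With TAC it changed by -0.79 ± 0.87, adjusted p = 0.67 on the BCAA-free diet and 0.80 ± 0.55, adjusted p = 0.385 on the control diet. Scaled to the cardiomyocyte sum, the difference between diets in TAC hearts was -1.96, adjusted p = 0.0199. Ucp3 encodes an uncoupling protein of the inner mitochondrial membrane. Ucp3 had 2608, 2039 and 2243 normalized reads in BCAA-free TAC hearts, against 2774, 8939 and 3371 in BCAA-free sham hearts. Ucp3 stood at 1799, 3299 and 3537 in control diet TAC hearts, against 2446, 4511 and 7723 in control diet sham hearts. BCAA-free TAC libraries were all below BCAA-free sham libraries, and the change was -0.94 ± 0.52, adjusted p = 0.38. Replicate 2 of BCAA-free sham and replicate 3 of control diet sham were the highest of their groups in Angptl4, Ucp3, Cpt1a and Ehhadh, as replicate 1 of BCAA-free TAC was in Angptl4, Ucp3 and Ehhadh. The same sham libraries were the highest of their groups for Pdk4, a kinase that restrains glucose oxidation, with 115894 and 69592 normalized reads. Pdk4 had 67649, 13263 and 18096 normalized reads in BCAA-free TAC hearts, against 21971, 115894 and 48419.5 in BCAA-free sham hearts. Pdk4 stood at 28015, 59269 and 52789 in control diet TAC hearts, against 26723, 45307 and 69592 in control diet sham hearts. Its change with TAC was -0.98 ± 0.97, adjusted p = 0.636 on the BCAA-free diet and 0.01 ± 0.38, adjusted p = 0.989 on the control diet.

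**Figure D3:**
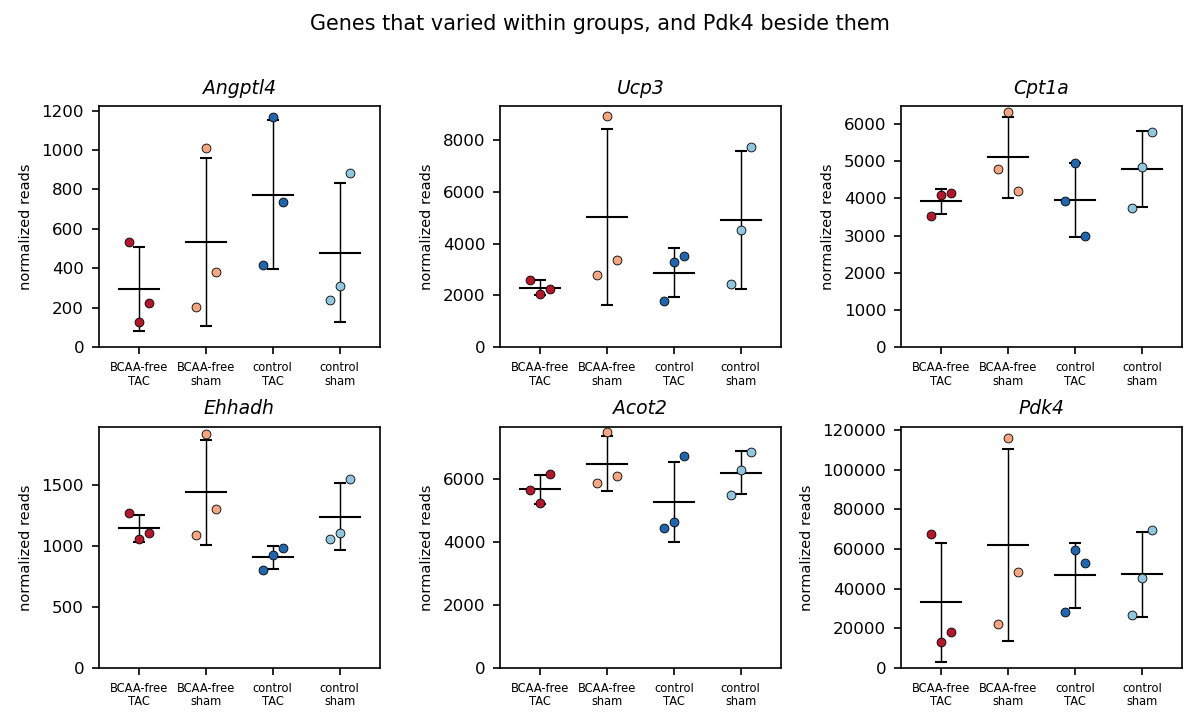
Normalized reads of Angptl4, Ucp3, Cpt1a, Ehhadh, Acot2 and Pdk4 in each library, with points for libraries, a line for the mean and a bar for the SD (n = 3 a group). The spread within groups is wide, as in Angptl4 of BCAA-free sham hearts with 205, 1013 and 383 normalized reads, and replicate 2 of BCAA-free sham and replicate 3 of control diet sham are the highest of their groups in all 6 panels.

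TAC on the control diet asked how pressure load moved the route when branched-chain amino acids were eaten. Of the 38 genes, 10 fell and 0 rose (limma, adjusted p under 0.05 over all genes), where 5.64% of the 18305 genes tested fell, 9.17% rose and 14.8% did either. The genes that fell were Vldlr at the plasma membrane, Acsl1, Acsm5 and Cpt1b of activation and the shuttle, Etfdh of electron transfer, Hadha, Hadh and Acaa2 of the spiral, the isomerase Ech1 and the thioesterase Acot1. The median log2 change was -0.41 over the 38 genes, 37 of which were below 0, and -0.02 over all genes tested. In 20 genes every TAC library was below every sham library, against 16.3% of all genes. DESeq2 on the recovered reads called 18 lower and 0 higher, where it called 8.06% of all genes lower and 11.8% higher, and the authors' deposited table gives the same counts. Without replicate 3 of control diet TAC, 28 of the 38 fell, where 12.1% of all genes fell and 13.6% rose; 19 genes gained the call and Acot1 lost it. Vldlr, Hadha and Acsm5 passed whichever library was left out. Acsl1, Etfdh, Hadh and Ech1 were each lost without any 1 of the other 5 libraries (replicates 1 and 2 of TAC, all 3 of sham), with adjusted p up to 0.169. Acaa2 was lost without TAC replicate 1 or any sham library (up to 0.0735), Acot1 without TAC replicates 2 or 3 or sham replicates 1 or 3 (up to 0.101), and Cpt1b without sham replicates 2 or 3 (up to 0.0642). Of fibroblast and macrophage markers, 4 of 5 in each list rose in the same comparison, and 0 of 9 cardiomyocyte markers passed. Of smooth muscle markers 2 of 4 rose, and of white adipocyte markers 1 of 6. Of 4 brown adipocyte markers Ucp1, Dio2 and Cidea rose and Cox7a1, which muscle also expresses, fell; their sum was 36577 to 53128 normalized reads in control diet TAC hearts and 61483 to 86719 over the other 3 groups. Their part in the lower levels was not tested. Scaled to the cardiomyocyte sum, the median of the 38 genes was -0.29 where that of all genes was 0.10, and 7 of the 38 fell, where 1.43% of all genes fell and 7.45% rose.

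The BCAA-free diet in TAC hearts asked whether hearts under the same load differed by diet. Of the 38 genes, 16 rose and 0 fell by limma, where 6.23% of the 18039 genes tested rose, 10.5% fell and 16.8% did either, but when libraries were scaled to the cardiomyocyte sum 1 rose (Acsm5) and 4 fell (Angptl4, Fabp3, Ucp3 and Acaa1a), where 0.796% of all genes rose and 42.8% fell. Of the 16, 15 stayed above 0 under that scaling, 1 of them passing, and Cd36 was at -0.056. The 16 were Cd36, Lpl and Vldlr of uptake, Acsm5 and Cpt1b, the dehydrogenases Acadvl and Acadm, Etfa and Etfdh, then Hadha, Hadhb, Hadh and Acaa2 of the spiral, Eci1 and Ech1, and Acot1. The median log2 difference was 0.43 over the 38 genes and 0.02 over all genes. Under cardiomyocyte scaling these medians were -0.03 and -0.44; the cardiomyocyte sum itself was 3912180 to 4272890 in BCAA-free TAC hearts, against 2740350 to 3427130 in control diet TAC hearts. In 26 genes every BCAA-free library was above every control diet library, against 17% of all genes. DESeq2 called 23 higher and 0 lower, where it called 8.47% of all genes higher and 12.8% lower, and the authors' deposited table gives the same counts. Without replicate 3 of control diet TAC, 35 of the 38 rose, where 16.2% of all genes rose and 17.3% fell; 19 genes gained the call, and Angptl4, Cpt1a and Ucp3 were those that did not pass either way. Vldlr, Acsm5 and Cpt1b passed whichever library was left out. Hadha and Acot1 were lost without BCAA-free TAC replicates 2 or 3 (adjusted p up to 0.0717), and Acaa2 and Ech1 also without control diet TAC replicate 1 (up to 0.0986). The other 9 were lost without any 1 of the 5 libraries other than control diet TAC replicate 3, with adjusted p up to 0.194. All 5 macrophage markers and 2 of 5 fibroblast markers fell in the same comparison, and 4 of 9 cardiomyocyte markers rose. In addition 1 of 4 smooth muscle markers fell, 1 of 2 skeletal muscle markers rose, and of 4 brown adipocyte markers Cox7a1 rose and Dio2 fell. Their part in the higher levels was not tested.

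**Figure D4:**
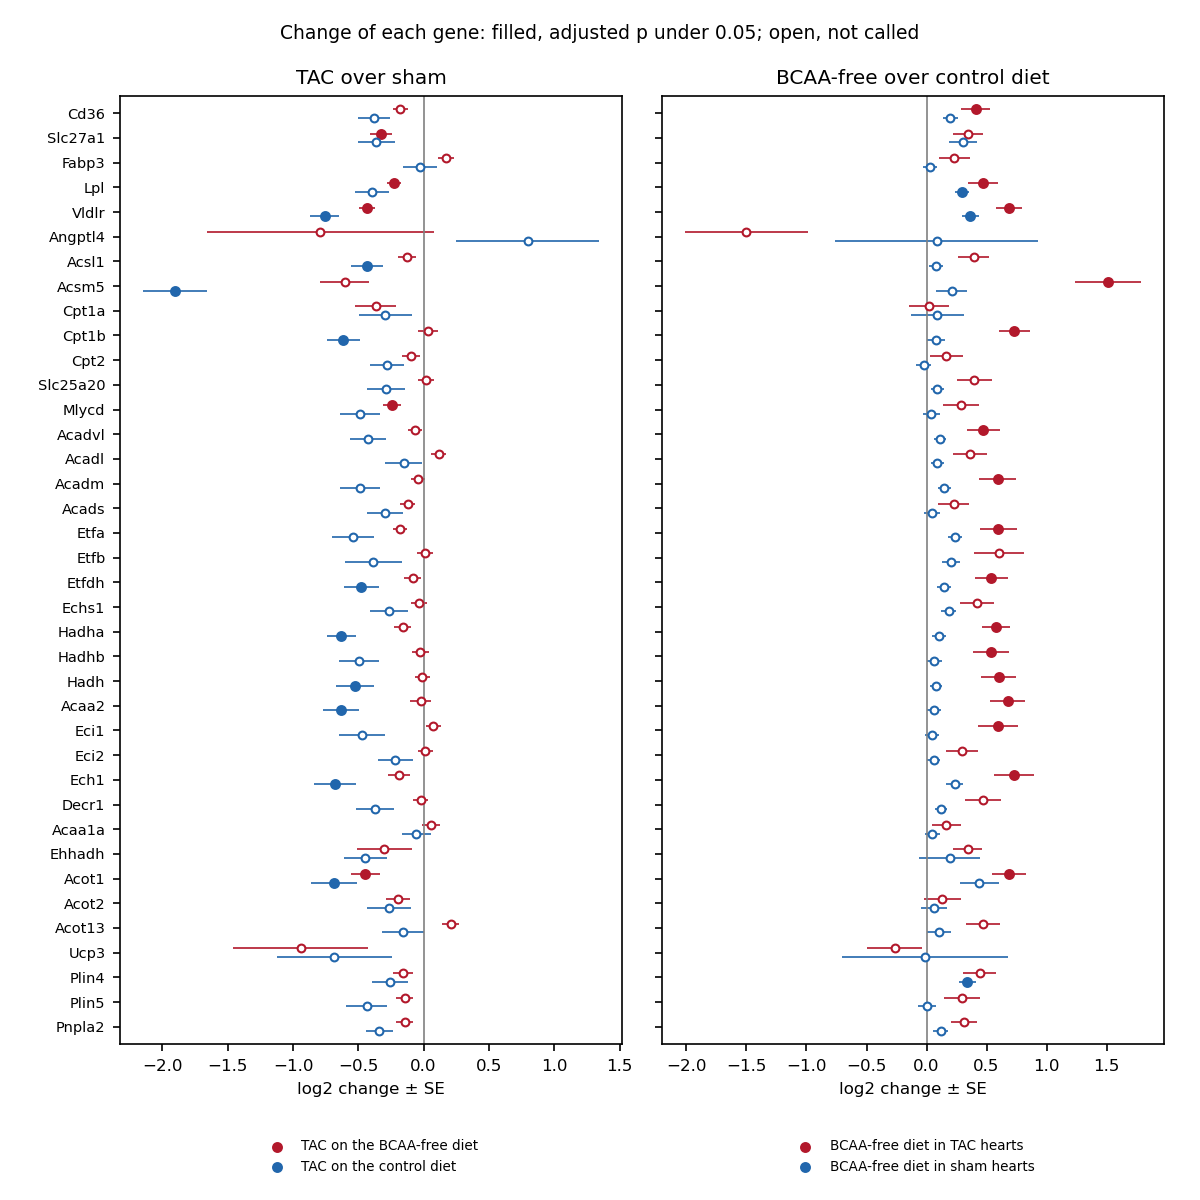
Log2 change ± SE of each of the 38 genes (limma, 3 libraries against 3), with TAC over sham on the left and the BCAA-free over the control diet on the right; filled points passed at an adjusted p under 0.05. On the left, 5 genes passed on the BCAA-free diet and 10 on the control diet, all below 0; on the right, 16 passed in TAC hearts and 3 in sham hearts, all above 0. Under scaling to cardiomyocyte genes, not shown, 15 of these 16 stayed above 0 but 1 passed, while 4 other genes passed below 0, and in sham hearts 0 passed.

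TAC on the BCAA-free diet asked the same of hearts deprived of these amino acids. Of the 38 genes, 5 fell and 0 rose by limma, where 4.41% of the 17611 genes tested fell, 3.31% rose and 7.72% did either. These were Vldlr, Lpl and Slc27a1 of uptake, Mlycd of the shuttle and the thioesterase Acot1. No enzyme of the beta-oxidation spiral was among them without cardiomyocyte scaling. The median log2 change was -0.12 over the 38 genes, 29 of which were below 0, and 0.01 over all genes. In 11 genes every TAC library was below every sham library, against 14.7% of all genes, and in Fabp3 and Acot13 every TAC library was above, against 13.4%. DESeq2 called 9 lower and 1 higher, where it called 5.8% of all genes lower and 4.95% higher, and the authors' deposited table gives the same counts. Vldlr passed whichever library was left out, and the count ran from 1 to 6 over those fits. Without TAC replicate 3 it held 1 gene higher and 1 lower. Lpl was lost without any sham library or TAC replicate 3 (adjusted p up to 0.1), Acot1 without sham replicates 2 or 3 or TAC replicates 1 or 3 (up to 0.107), Slc27a1 without any library but TAC replicate 2 (up to 0.132), and Mlycd without any but sham replicate 1 (up to 0.166). In this comparison 5 of 9 cardiomyocyte, 3 of 4 smooth muscle, 2 of 5 macrophage, 2 of 4 brown adipocyte and 1 of 5 white adipocyte markers rose, and of 5 fibroblast markers 1 rose and 1 fell. Their part in the result was not tested. Scaled to the cardiomyocyte sum, 28 of the 38 genes fell, where 29.9% of all genes fell and 1.35% rose. The medians were -0.35 over the 38 and -0.22 over all genes. Among the 28 were Acadvl, Acadm, Acads, Echs1, Hadha, Hadhb, Hadh and Acaa2 of the spiral. Hadha had -0.38 (adjusted p = 0.00208) and Acaa2 -0.25 (adjusted p = 0.0376), while Acadl did not pass (-0.11, adjusted p = 0.232).

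The BCAA-free diet in sham hearts asked what the diet did without load. Of the 38 genes, Lpl, Vldlr and Plin4 rose and 0 fell by limma, where 1.27% of the 17862 genes tested rose, 2.27% fell and 3.54% did either; scaled to the cardiomyocyte sum, 0 of the 38 passed and the median of the 38 was -0.02 in place of 0.10. Under that scaling 0.403% of all genes rose and 4.69% fell. All 3 act in the delivery or storage of triglyceride, but the droplet genes Plin5 (0.002 ± 0.076, adjusted p = 0.994) and Pnpla2 (0.12 ± 0.07, adjusted p = 0.363) did not pass. The median over all genes was 0.00, and -0.11 after that scaling. In 16 genes every BCAA-free library was above every control diet library, against 13.2% of all genes. DESeq2 called 6 higher and 0 lower, where it called 3.17% of all genes higher and 5.35% lower, and the authors' deposited table gives the same counts. The genes that DESeq2 added were Etfa of electron transfer, the isomerase Ech1 and the thioesterase Acot1. All 3 limma calls were lost without BCAA-free sham replicate 1 or 2, where the count was 0. Lpl was also lost without BCAA-free replicate 3 or control diet replicate 2, Vldlr without BCAA-free replicate 3, and Plin4 without control diet replicates 1 or 3, with adjusted p up to 0.135. In the same comparison 2 of 7 endothelial markers and 1 of 5 fibroblast markers fell, and their part was not tested.

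The comparisons above share groups: the TAC response and the diet difference use the same control diet TAC libraries, so they are not independent of each other. Whether the response to TAC differed between diets was tested directly, as the change with TAC on the BCAA-free diet minus that on the control diet. None of the 38 genes passed by limma, where 0.171% of the 17493 genes tested were higher, 0.503% lower and 0.675% either. An unadjusted p under 0.05 was reached by 13 of the 38, against 14.7% of all genes. edgeR gave 0 and DESeq2 gave 4 (Hadha, Acsm5, Acaa2 and Cpt1b), where DESeq2 gave 1.6% of all genes as higher and 3.11% as lower. Of the 5 genes with the smallest p-values, Acsm5 had the largest difference (1.30 ± 0.34, adjusted p = 0.0843), followed by Cpt1b (0.65 ± 0.16, adjusted p = 0.0748), Acaa2 (0.61 ± 0.17, adjusted p = 0.0981), Hadh (0.52 ± 0.16, adjusted p = 0.143) and Hadha (0.47 ± 0.12, adjusted p = 0.0817). Angptl4 had a larger one with a wide error (-1.59 ± 1.07, adjusted p = 0.558). Vldlr, which fell on both diets, had 0.32 ± 0.12, adjusted p = 0.238. The median difference was 0.28 over the 38 genes, 35 of which were above 0, and 0.02 over all genes; scaled to the cardiomyocyte sum these were -0.07 and -0.33, and 0 of the 38 passed, where 0.0915% of all genes were higher and 10.9% lower. Without replicate 3 of control diet TAC, 22 of the 38 genes passed, all higher, where 5.09% of all genes were higher and 4.95% lower. Among these were Hadh at 0.68 ± 0.09 (adjusted p = 0.000951), Acadm at 0.61 ± 0.08 (adjusted p = 0.00124) and Acadvl at 0.50 ± 0.08 (adjusted p = 0.00381). Without BCAA-free TAC replicate 1, Cpt1b and Acsm5 passed, and without any other library the count was 0. By limma the count for this difference thus changed most with how replicate 3 of control diet TAC was treated, and it also changed with the test used.

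**Figure D5:**
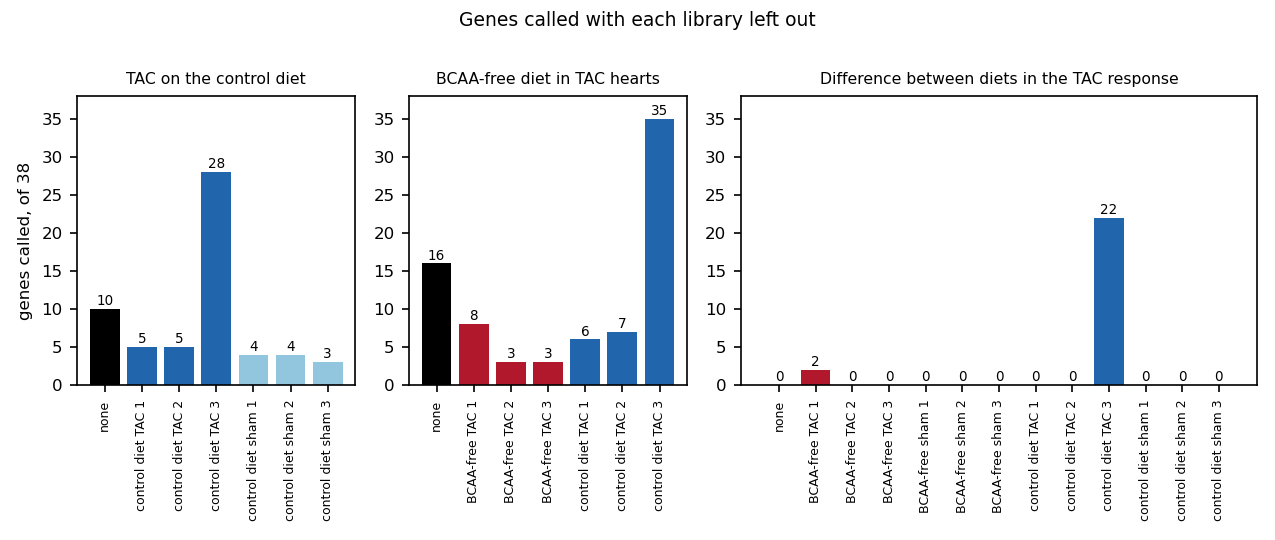
Number of the 38 genes that passed (limma, adjusted p under 0.05) with no library left out and with each library left out in turn, for TAC on the control diet, the diet in TAC hearts and the difference between diets in the TAC response. Without replicate 3 of control diet TAC the counts were 28, 35 and 22, against 10, 16 and 0 with all libraries; scaling to cardiomyocyte genes is not shown, and under it the second count was 5, with 1 gene higher and 4 lower.

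Regulators of the route were read from a list of 20 genes, of which Fgf21 is not analysed here. With TAC on the control diet, 7 of 19 fell and 1 rose, where 5.64% of all genes fell and 9.17% rose. On the BCAA-free diet 6 fell and 1 rose, where 4.41% of all genes fell and 3.31% rose. Between diets, 5 of 19 rose in TAC hearts and 1 in sham hearts, and none fell. Of all genes 6.23% rose and 10.5% fell in TAC hearts, and 1.27% rose and 2.27% fell in sham hearts. Under cardiomyocyte scaling the differences in TAC hearts were 0.40 for Klf15 (adjusted p = 0.0187), 0.47 for Ppara (adjusted p = 0.229) and 0.064 for Perm1 (adjusted p = 0.655). Perm1 encodes a muscle regulator that acts with PPARGC1A and ERR receptors. Perm1 had 25593, 29057 and 27378 normalized reads in BCAA-free TAC hearts, against 28059, 24070.4 and 27681 in BCAA-free sham hearts. Perm1 stood at 18759.8, 19004 and 19249 in control diet TAC hearts, against 27915, 26161 and 27096 in control diet sham hearts. Control diet TAC libraries of Perm1 were below all others without overlap. Perm1 fell with TAC on the control diet (-0.52 ± 0.10, adjusted p = 0.00836), had a change of 0.04 ± 0.07, adjusted p = 0.819 with TAC on the BCAA-free diet and rose between diets in TAC hearts (0.53 ± 0.10, adjusted p = 0.00708; 0.0589 without BCAA-free TAC replicate 2). It was the only gene of the regulator list to pass in the difference between diets (0.55 ± 0.12, adjusted p = 0.0456), a call that held in 2 of 12 fits with a library left out, and under cardiomyocyte scaling the difference was 0.21 with adjusted p = 0.299. Ppara, the fatty acid-sensing receptor itself, fell with TAC on the control diet (-0.98 ± 0.22, adjusted p = 0.0173) and rose between diets in TAC hearts (0.94 ± 0.22, adjusted p = 0.0188). Ppara had 2328, 2939 and 2856 normalized reads in BCAA-free TAC hearts, against 3615, 3039 and 3098 in BCAA-free sham hearts. Ppara stood at 1653, 1825 and 929 in control diet TAC hearts, against 2608, 2913 and 2794 in control diet sham hearts. Replicate 3 of control diet TAC held the lowest Ppara level of all libraries, although it held the highest level of its group for most of the route. Its call on the control diet was lost without any 1 sham library (adjusted p up to 0.0625), and the call between diets without BCAA-free TAC replicates 2 or 3 (up to 0.0865). Klf15, a regulator of amino acid and lipid metabolism, was lower in TAC hearts and higher on the BCAA-free diet in each pair of means. Klf15 had 6359.9, 5468 and 5085 normalized reads in BCAA-free TAC hearts, against 7448, 7831 and 7077 in BCAA-free sham hearts. Klf15 stood at 3199.7, 2755 and 3383 in control diet TAC hearts, against 5723, 4753 and 3253 in control diet sham hearts. Klf15 rose between diets in TAC hearts (0.86 ± 0.12, adjusted p = 0.00182), and the difference in sham hearts was 0.74 ± 0.21, adjusted p = 0.134. It fell with TAC on the BCAA-free diet (-0.41 ± 0.08, adjusted p = 0.00788), and the change on the control diet was -0.53 ± 0.19, adjusted p = 0.0944. The difference between diets in its TAC response was 0.12 ± 0.23, adjusted p = 0.871. Prkaa2, a catalytic subunit of AMP-activated kinase, fell with TAC on the BCAA-free diet (-0.36 ± 0.05, adjusted p = 0.00211) and on the control diet (-0.51 ± 0.10, adjusted p = 0.0112), the second being lost without control diet sham replicate 3 or TAC replicate 1 (adjusted p up to 0.062). Acacb makes the malonyl-CoA that inhibits carnitine palmitoyltransferase 1, and fell with TAC on the control diet (-0.69 ± 0.13, adjusted p = 0.0104). It also fell on the BCAA-free diet (-0.28, adjusted p = 0.0436), a call lost without any 1 library but BCAA-free TAC replicate 3 (up to 0.125). Scaled to the cardiomyocyte sum, its changes were -0.57 (adjusted p = 0.0865) on the control diet and -0.51 (adjusted p = 0.00397) on the BCAA-free diet.

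Other uptake, activation and carnitine genes did not move as a block. Of 19 tested, 4 fell and 4 rose with TAC on the control diet, where 5.64% of all genes fell and 9.17% rose. Between diets in TAC hearts 4 rose and 5 fell, where 6.23% of all genes rose and 10.5% fell. Acss1, a mitochondrial acetyl-CoA synthetase, fell with TAC on the BCAA-free diet (-0.38 ± 0.06, adjusted p = 0.00266) and on the control diet (-0.58 ± 0.10, adjusted p = 0.00634), and rose on the BCAA-free diet in sham hearts (0.35 ± 0.05, adjusted p = 0.0102), a call lost without BCAA-free sham replicates 1 or 3 (adjusted p up to 0.076). Acsl5, a long-chain acyl-CoA synthetase, was lower on the BCAA-free diet in TAC hearts (-0.65 ± 0.10, adjusted p = 0.00231). Slc27a6, another fatty acid transport protein, was read at few reads. Slc27a6 had 25.8, 18.2 and 19.7 normalized reads in BCAA-free TAC hearts, against 12.2, 14.2 and 12.6 in BCAA-free sham hearts. Slc27a6 stood at 70.7, 52.7 and 53.5 in control diet TAC hearts, against 20.4, 14.9 and 28 in control diet sham hearts. It rose with TAC on the control diet (1.47 ± 0.31, adjusted p = 0.014) and was lower on the BCAA-free diet in TAC hearts (-1.43 ± 0.28, adjusted p = 0.00841). Without control diet TAC replicate 1 the first call was lost (adjusted p = 0.066). Under cardiomyocyte scaling the differences between diets in TAC hearts were 0.092 for Acss1 (adjusted p = 0.453), -1.11 for Acsl5 (adjusted p = 0.0019) and -1.88 for Slc27a6 (adjusted p = 0.00296). Of all genes, 0.796% rose and 42.8% fell under that scaling. Of 16 lipid droplet and lipolysis genes, 3 fell with TAC on the control diet, where 5.64% of all genes fell. With TAC on the BCAA-free diet 3 fell and 1 rose, where 4.41% of all genes fell and 3.31% rose. Between diets in TAC hearts 4 rose, where 6.23% of all genes rose. Fitm2, needed to bud droplets from the endoplasmic reticulum, fell with TAC on the BCAA-free diet (-0.41 ± 0.06, adjusted p = 0.00264) and on the control diet (-0.70 ± 0.12, adjusted p = 0.00544). Under cardiomyocyte scaling the differences between diets in TAC hearts were 0.27 for Dgat2 (adjusted p = 0.101), 0.083 for Fitm1 (adjusted p = 0.578) and -0.022 for Fitm2 (adjusted p = 0.871). Of 16 peroxisomal genes, none passed with TAC on the BCAA-free diet, where 7.72% of all genes did. With TAC on the control diet 1 fell, where 5.64% of all genes fell. Between diets 2 rose in TAC hearts, and 1 of 15 tested rose in sham hearts, where 6.23% and 1.27% of all genes rose. Abcd2, a peroxisomal transporter of fatty acyl-CoA, fell with TAC on the control diet (-0.47 ± 0.12, adjusted p = 0.0337) and rose between diets in TAC hearts (0.67 ± 0.14, adjusted p = 0.0111). The first call was lost without any 1 library but control diet TAC replicate 3 (adjusted p up to 0.131), and the second without BCAA-free TAC replicates 2 or 3 (up to 0.07). Scaled to the cardiomyocyte sum, the changes of Abcd2 were -0.35 (adjusted p = 0.244) and 0.21 (adjusted p = 0.391).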

How the data were processed

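RNA-seq of 12 heart libraries was analysed, 3 in each group, grouped by the labels. Each of the 4 deposited tables holds 2 groups and, per the file headers, the authors' signal (normalized read count) of every library, their log2 fold change and its raw and adjusted p-value. DESeq2, Subread 1.5.2, STAR 2.5.2b and Trimmomatic 0.36 are listed in the submitters' processing notes, with builds GRCm38 and mm10. Tool settings, annotation release and strand: not given in the sources used here. Dividing the deposited signal by the worth of 1 read gave whole numbers for 100% of values (tolerance 0.0001 read).

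The design foresaw edgeR for raw counts; as the values were normalized, the main test was limma 3.58.1 (trend, robust; R 4.3.3) on log2(value + 1) within each table, for genes with a mean of at least 10, with Benjamini-Hochberg adjusted p under 0.05 over all genes, and a 12-library model of 4 group means for the difference between diets. Changes on the log2(value + 1) scale understate those of low genes. Per-library values use median-ratio size factors over the 12 libraries, and reads per kilobase use GENCODE exon lengths of GRCm38 (18552 gene IDs matched). Alternatives were edgeR 4.0.16 and DESeq2 1.42.0 on recovered reads, TMM and cardiomyocyte scaling, a pseudocount of 5, no filter, 1 joint fit, a replicate block and leaving out each library. Unless another setting is named, calls of single genes are from the main test. Scripts were tested on simulated data. Members and lists were chosen with earlier results of these data known. By rule, values in all libraries went to members called anywhere, full statistics to the 8 smallest p-values of a comparison and to 9 core genes, and up to 3 genes were named from each other list; the per-library values of Fabp3, Cpt1a, Angptl4, Ucp3 and Pdk4 were added after being seen. Some genes of the lists are not reported here. Library totals ranged from 74206246 to 110452636 reads.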

Additional observations from a re-analysis of the deposited data

How the results depend on the processing

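The count of the 38 genes called kept its direction under edgeR (9 lower with TAC on the control diet, 5 lower on the BCAA-free diet, 3 higher with the diet in sham hearts and 14 higher in TAC hearts), TMM scaling (10, 5, 3 and 18), a pseudocount of 5 and no filter (10, 5, 3 and 16 under each), and all 4 gave 0 for the difference between diets. All genes called higher and lower under edgeR numbered 1638 and 1125, 612 and 800, 240 and 460, 1185 and 1874, and 33 and 108 in this order. Under TMM they numbered 1606 and 1136, 586 and 775, 222 and 413, 1227 and 1842, and 28 and 96. DESeq2 called 18, 10 (1 higher, 9 lower), 6, 23 and, for the difference, 4 of the 38 genes. One fit of all 12 libraries called 21, 1, 0, 25 and 0. Of its 17710 genes, 2391 were called higher and 2013 lower with TAC on the control diet, and 175 and 127 on the BCAA-free diet. With the diet these were 35 and 114 in sham hearts and 2029 and 2452 in TAC hearts, and 29 and 86 for the difference. Scaling to the cardiomyocyte sum called 7, 28, 0, 5 (1 higher, 4 lower) and 0. Under that scaling all genes called higher and lower numbered 1364 and 262 with TAC on the control diet (1678 and 1032 otherwise), 238 and 5262 on the BCAA-free diet (583 and 777), 72 and 838 with the diet in sham hearts (227 and 406), 144 and 7737 in TAC hearts (1124 and 1901), and 16 and 1914 for the difference (30 and 88). Under it Eci2 and Etfb turned to -0.21 and -0.21 and gained a call with TAC on the BCAA-free diet, as did Fabp3 at -0.23 and Acaa1a at -0.30 between diets in TAC hearts, where Cd36 turned to -0.056 and lost its call; the cause was not tested. With each library left out in turn, counts of calls in either direction ran from 3 to 28 with TAC on the control diet and 1 to 6 on the BCAA-free diet. They ran from 0 to 4 with the diet in sham hearts, 3 to 35 in TAC hearts and 0 to 22 for the difference. Libraries that share a replicate number did not deviate together, with correlations of their deviations between -0.17 and 0.0399, so the number was not taken to pair them. With the replicate block the counts were 8, 2, 1, 9 and 0. All genes called higher and lower with the block numbered 1244 and 629, 303 and 320, 90 and 186, 630 and 1407, and 12 and 38. Of the other values of single genes, 2465 kept their side of the threshold, where called genes also kept direction and uncalled genes moved by at most 1 SE. Uncalled genes near 0 could change sign within that limit. A further 160 values lost and 145 gained a call, and 113 without a call moved by more than 1 SE. Depth was ample for most of the 38 genes, while Acsm5 and Angptl4 rest on about 101 to 1169 normalized reads a library.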

Other observations

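A further 22 genes of ketone use and of oxidation routes beside the main spiral were read for comparison. With TAC on the control diet 6 fell and 1 rose, where 5.64% of all genes fell and 9.17% rose. With TAC on the BCAA-free diet 1 fell, where 4.41% of all genes fell. On the BCAA-free diet 2 rose in sham hearts and 10 rose in TAC hearts, where 1.27% and 6.23% of all genes rose. Pcca and Mmut (listed as Mut in the tables), which carry propionyl-CoA from valine, isoleucine and odd-chain fatty acids into the citric acid cycle, and Acadsb, which oxidizes the acyl-CoA of isoleucine, had the smallest p-values. Pcca had 7392, 8389 and 8030.4 normalized reads in BCAA-free TAC hearts, against 8954, 9128 and 9253 in BCAA-free sham hearts. Pcca stood at 5058, 5138 and 5199 in control diet TAC hearts, against 7968, 7965 and 7895 in control diet sham hearts. Pcca rose between diets in TAC hearts (0.63 ± 0.09, adjusted p = 0.00216) and fell with TAC on the control diet (-0.64 ± 0.09, adjusted p = 0.00234), while the change with TAC on the BCAA-free diet was -0.21 ± 0.06, adjusted p = 0.0518. Acadsb fell with TAC on both diets (-0.29 ± 0.06, adjusted p = 0.00858 on the BCAA-free diet, -0.52 ± 0.10, adjusted p = 0.00805 on the control diet) and rose on the BCAA-free diet in TAC hearts (0.56 ± 0.09, adjusted p = 0.00381). These calls of Pcca and Acadsb passed whichever library was left out. Scaled to the cardiomyocyte sum, the differences between diets in TAC hearts were 0.17 for Pcca, 0.18 for Mmut and 0.10 for Acadsb. Their adjusted p were 0.265, 0.191 and 0.475, and 0.796% of all genes rose under that scaling.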
